A study of Mus musculus with 24 samples.

Results

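The genes described here are those of the liver's glycogen store, 7 of the 23152 genes measured, chosen by symbol. Gys2, Gbe1 and Ugp2 encode enzymes of glycogen synthesis, Pygl encodes the enzyme of glycogen breakdown, and Ppp1r3b, Ppp1r3c and Ppp1r3g encode subunits that target a phosphatase to glycogen. All 7 were measured, by 80 probe sets in total, and a gene's value is the mean of its probe sets on the log2 scale. The RNA was whole liver RNA from male mice, aged 13 weeks, of a strain that the labels write as C56bl/6J, with chow always available. The 8 groups differed only in zeitgeber time, counted in hours and sampled every 3 h from ZT0 to ZT21, with 3 arrays a group and 24 in all. No treatment or mutation was used, so every comparison is between hours of the day. The light schedule is not given in the labels used here. The labels do not say that replicates came from separate animals, so the p-values speak only to the scatter among these arrays, part or all of which may be technical.

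Glycogen is the liver's glucose reserve, filled after feeding and drawn on between meals. UDP-glucose, made by the product of Ugp2, is added to growing chains by glycogen synthase, whose liver form is encoded by Gys2, and the branching enzyme encoded by Gbe1 introduces the branch points. Glycogen phosphorylase, whose liver form is encoded by Pygl, releases glucose units from the chain ends. Protein phosphatase 1 switches the synthase on and the phosphorylase off, and the products of the Ppp1r3 genes hold it at the glycogen particle.

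The array medians lay between 6.44 and 6.51. Background was taken as 6.17, the 95th percentile of 1101 olfactory receptor genes, and 10289 genes had a mean above it. The array of ZT0 replicate 1 stood apart. Its mean correlation with the other arrays was 0.9678, against 0.9802 to 0.9855 for the rest. Its summed log2 level over 6 neutrophil markers was 62.6, against 24.3 to 29.2 on the other arrays, and over 6 Kupffer cell markers it was 69.0, against 45.0 to 56.0. Their part in the results was not tested, and values without that array are given beside the rhythm of each of the 7 genes and beside the ZT12 to ZT0 differences described. All 8 hepatocyte markers lay above background, as did 1 of 6 skeletal muscle, 1 of 6 adipocyte, 1 of 6 pancreatic acinar, 6 of 6 Kupffer cell and 0 of 6 neutrophil markers by their means over all arrays. None of these lists other than the hepatocyte list, with Hnf4a, held a rhythmic gene. The 16 clock genes all had a rhythm, and all 16 peaked later on the arrays numbered replicate 1 than on those of replicate 2 (median 2.29 h) and of replicate 3 (median 2.07 h).

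Of the 7 genes, 4 had a 24-h rhythm: Gys2, Gbe1, Ppp1r3b and Ppp1r3c. The test was limma's moderated F over the cosine and sine of a 24-h period, with Benjamini-Hochberg adjustment over all genes and a threshold of 0.05. Of all genes 6.88% passed it, as did 13.9% of those above background (1429 of 10289). The range, which is the fitted distance from peak to trough on the log2 scale, had a median of 0.71 over the 7 genes, 0.252 over all genes and 0.326 over genes above background. The acrophase, the fitted hour of the peak, came first for Gys2, then for Gbe1, Ppp1r3b and Ppp1r3c. In whole tissue, fewer cells of a type and less RNA per cell cannot be told apart.

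**Figure D1:**
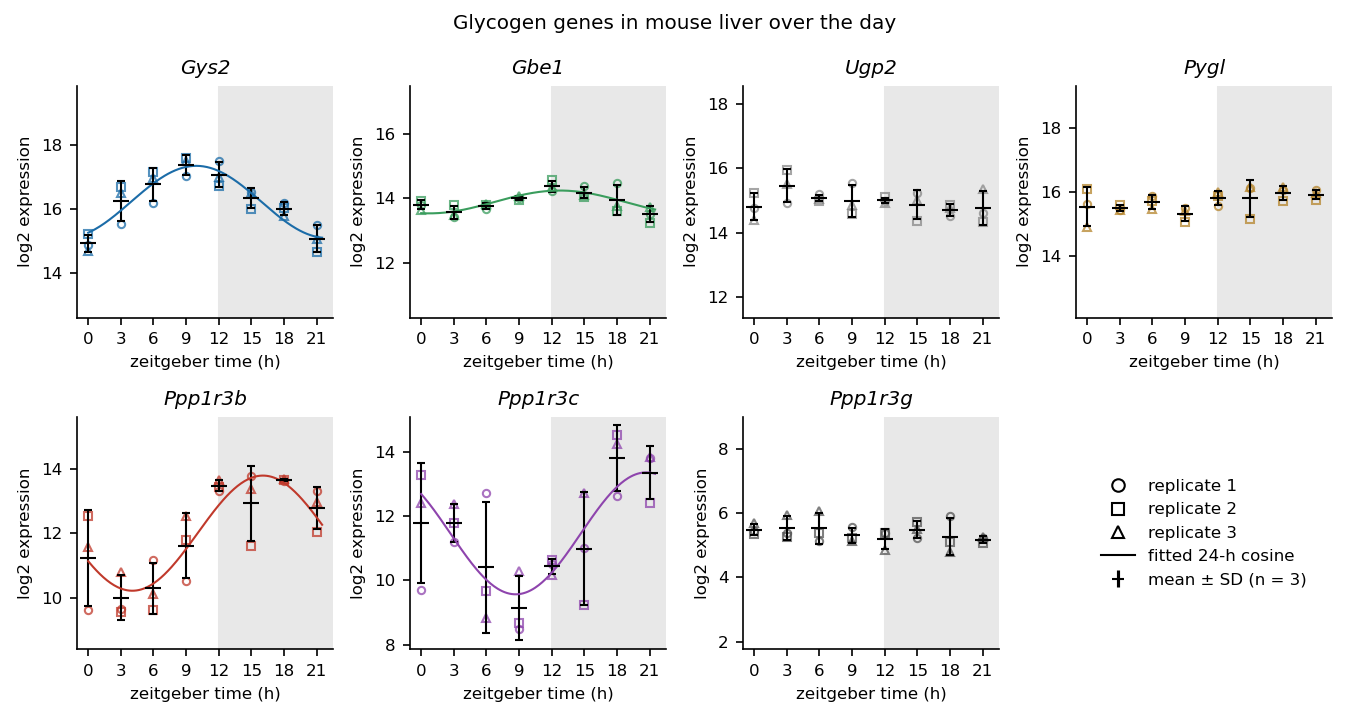
Log2 expression of the 7 genes on each of the 24 arrays (points) against zeitgeber time in hours, with the mean ± SD of the 3 arrays of each time point and the fitted 24-h cosine for the 4 genes that passed the test. Grey marks ZT12 to ZT24. Gys2 is highest at ZT9 (17.36), Gbe1 at ZT12 (14.38), and Ppp1r3b and Ppp1r3c at ZT18 (13.67 and 13.79).

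Gys2, the liver glycogen synthase (chromosome 6, 142422612 to 142473130 in mm10), rose through the early time points and fell again. It read 14.87, 15.21 and 14.70 on the 3 arrays of ZT0, then 15.53, 16.67 and 16.51 at ZT3, and 16.19, 17.15 and 16.97 at ZT6. At ZT9 it read 17.01, 17.59 and 17.50, at ZT12 17.50, 16.71 and 17.00, and at ZT15 16.53, 15.99 and 16.49. At ZT18 it read 16.20, 16.03 and 15.79, and at ZT21 15.49, 14.65 and 15.06. The highest means were those of ZT9 and ZT12, the lowest those of ZT0 and ZT21, and the arrays of ZT9 and ZT0 did not overlap. The mean was 17.36 ± 0.31 (SD, n = 3) at ZT9 and 14.93 ± 0.26 at ZT0, a difference of 2.43 or 5.39-fold. The fitted range was 2.24 ± 0.23 (SE, 24 arrays), or 4.73-fold, with the acrophase at 9.93 ± 0.39 h (adjusted p = 4.08e-06). In the order of the 8 means, neighbouring time points overlapped in 6 of 7 steps, and the exception lay between ZT18 and ZT21. Without ZT0 replicate 1 the range was 2.18 (adjusted p = 7.03e-06). The range of its brightest probe set alone was 1.31. That probe set had a mean of 19.60 at ZT9, and the highest value in the data is 19.93. Whether that limit narrowed its range was not tested. The ranges of the other probe sets of Gys2 ran from 1.58 (mean 14.96) to 3.22 (mean 13.74). Without probe sets that reach 19.93 the range of the gene was 2.30.

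Gbe1, the branching enzyme (chromosome 16, 70313949 to 70569720), had a smaller rhythm that peaked later. It read 13.81, 13.93 and 13.65 at ZT0, 13.42, 13.78 and 13.49 at ZT3, and 13.67, 13.79 and 13.84 at ZT6. At ZT9 it read 14.00, 13.96 and 14.08, at ZT12 14.24, 14.57 and 14.34, and at ZT15 14.38, 14.05 and 14.10. At ZT18 it read 14.49, 13.62 and 13.76, and at ZT21 13.53, 13.24 and 13.74. The 3 arrays of ZT12 all lay above the 3 of ZT21, while replicate 1 of ZT18 lay apart from the other arrays of its time point. The mean was 14.38 ± 0.17 at ZT12 and 13.51 ± 0.25 at ZT21, a difference of 0.87 or 1.83-fold. The fitted range was 0.71 ± 0.14, or 1.63-fold, with the acrophase at 12.74 ± 0.77 h (adjusted p = 0.00682). Without ZT0 replicate 1 it was 0.75 (adjusted p = 0.00559). The call was lost with the median in place of the mean of the probe sets (adjusted p = 0.0655) and when the 8 replicate 1 arrays were left out (adjusted p = 0.0615).

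Ugp2, which makes UDP-glucose (chromosome 11, 21321126 to 21371267), did not pass the rhythm test. Its time-point means ran from 14.71 ± 0.18 at ZT18 to 15.47 ± 0.52 at ZT3, and neighbours in that order overlapped in 7 of 7 steps. The fitted range was 0.47 ± 0.21 (adjusted p = 0.365), and 0.48 without ZT0 replicate 1 (adjusted p = 0.378). Pygl, the liver phosphorylase (chromosome 12, 70190815 to 70227683), did not pass either. Its means ran from 15.33 ± 0.23 at ZT9 to 15.98 ± 0.22 at ZT18, again with overlap in 7 of 7 steps, and the fitted range was 0.47 ± 0.18 (adjusted p = 0.279), and 0.47 without ZT0 replicate 1 (adjusted p = 0.3). For both genes the arrays of the highest and the lowest time point did not overlap. These time points were picked by their means, which favours such a gap, so the gap alone is not evidence of a change. The same holds for the highest and lowest time points of the other genes. A p above the threshold does not show that the levels of Ugp2 and Pygl were constant.

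Ppp1r3b, the targeting subunit known as GL that is abundant in liver (chromosome 8, 35375694 to 35388139), was low at ZT3 and ZT6 and high from ZT12 on. It read 9.61, 12.54 and 11.59 at ZT0, 9.65, 9.57 and 10.80 at ZT3, and 11.17, 9.61 and 10.12 at ZT6. At ZT9 it read 10.52, 11.81 and 12.54, at ZT12 13.33, 13.46 and 13.67, and at ZT15 13.80, 11.61 and 13.39. At ZT18 it read 13.64, 13.65 and 13.70, and at ZT21 13.32, 12.05 and 12.99. The arrays of ZT18 and ZT3 did not overlap, and the arrays of ZT0 were widely spread, with replicate 1 the lowest. The mean was 13.67 ± 0.03 at ZT18 and 10.01 ± 0.69 at ZT3, a difference of 3.66 or 12.6-fold. The fitted range was 3.58 ± 0.46, or 12-fold, with the acrophase at 16.06 ± 0.49 h (adjusted p = 5.9e-05). Without ZT0 replicate 1 it was 3.45 (adjusted p = 4.64e-05). With the median of the 5 probe sets the range was 2.69 (adjusted p = 9.12e-05). The probe set with the widest range, 5.62, had means of 5.51, 3.39, 3.23 and 5.03 from ZT0 to ZT9, below background.

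Ppp1r3c, the targeting subunit known as PTG (chromosome 19, 36731731 to 36736604), was lowest at ZT9 and highest at ZT18 and ZT21. Its promoter and that of Gbe1 are shown because they are the windows given for rhythmic genes. They are RefSeq sequences of GRCm38.p6, 250 bases before to 50 after the start, at chr19:36736555-36736854 on the minus strand and chr16:70313699-70313998 on the plus strand, with capitals marking the E-box CACGTG, the element bound by the clock's activators.
Ppp1r3c: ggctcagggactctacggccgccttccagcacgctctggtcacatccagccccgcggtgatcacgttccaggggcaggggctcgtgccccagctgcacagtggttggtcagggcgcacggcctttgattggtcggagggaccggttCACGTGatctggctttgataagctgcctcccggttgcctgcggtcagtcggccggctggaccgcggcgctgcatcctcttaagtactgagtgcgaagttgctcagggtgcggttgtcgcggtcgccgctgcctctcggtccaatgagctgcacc
Gbe1: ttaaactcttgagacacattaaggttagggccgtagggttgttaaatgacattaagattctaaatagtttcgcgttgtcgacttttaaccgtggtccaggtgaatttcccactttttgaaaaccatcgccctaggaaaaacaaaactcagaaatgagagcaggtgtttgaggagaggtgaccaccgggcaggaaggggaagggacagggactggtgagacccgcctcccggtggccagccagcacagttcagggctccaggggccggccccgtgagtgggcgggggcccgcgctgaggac
The E-box of Ppp1r3c began at position -104 from the start, and 7.15% of 32851 promoters of this length hold these letters on either strand. The Gbe1 window held no match to CACGTG, to the D-box forms TTATGTAA and TTACGTAA, to AGGTCA, or to TGACGTCA and the TGACG within it. Of the same promoters, 0.938% hold TTATGTAA, 0.119% TTACGTAA, 16.3% AGGTCA, 1.79% TGACGTCA and 20.8% TGACG. A match is a description of letters and not a binding site. RefSeq windows were matched for 5 of the 7 genes.

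Ppp1r3c read 9.69, 13.28 and 12.39 at ZT0, 11.20, 11.79 and 12.38 at ZT3, and 12.70, 9.68 and 8.84 at ZT6. At ZT9 it read 8.49, 8.67 and 10.29, at ZT12 10.50, 10.63 and 10.17, and at ZT15 10.99, 9.24 and 12.73. At ZT18 it read 12.62, 14.53 and 14.23, and at ZT21 13.81, 12.40 and 13.84. The arrays of ZT18 and ZT9 did not overlap. Within ZT0 and ZT6 replicate 1 lay far from the others, below them at ZT0 and above them at ZT6. The mean was 13.79 ± 1.03 at ZT18 and 9.15 ± 0.99 at ZT9, a difference of 4.64 or 24.9-fold. The fitted range was 3.79 ± 0.68, or 13.8-fold, with the acrophase at 20.68 ± 0.69 h (adjusted p = 0.00256). Without ZT0 replicate 1 it was 4.18 (adjusted p = 0.000225), and without all replicate 1 arrays 4.51 (adjusted p = 0.00216).

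Ppp1r3g, a targeting subunit tied to feeding in mouse liver (chromosome 13, 35958824 to 35970388), had a mean of 5.37, below background. Its time-point means ran from 5.18 ± 0.10 at ZT21 to 5.53 ± 0.48 at ZT6, and these arrays overlapped. The fitted range was 0.22 ± 0.18 (adjusted p = 0.771), and 0.22 without ZT0 replicate 1 (adjusted p = 0.798). Of its 5 probe sets 1 lay above background, at 10.99, and its range was 0.41 (adjusted p = 0.831 over all probe sets).

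**Figure D2:**
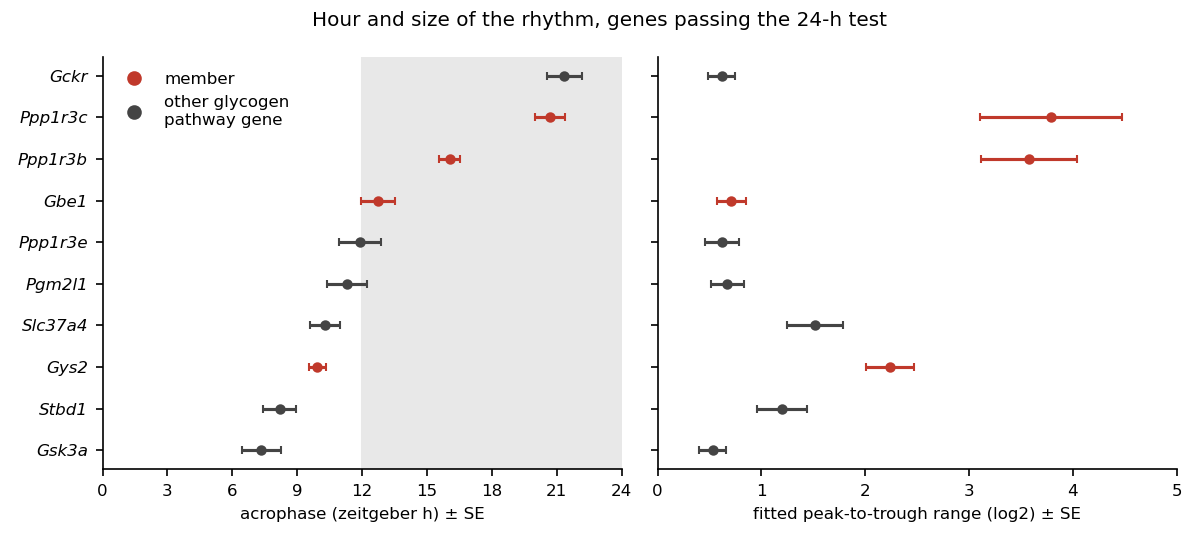
Acrophase in zeitgeber hours (left) and fitted range on the log2 scale (right), each ± SE, for the genes of the glycogen lists that passed the 24-h test. Red marks the 4 of the 7 genes (member) and dark grey the 6 others, and the grey band is ZT12 to ZT24. Gys2 lies at 9.93 h and Ppp1r3c at 20.68 h.

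Pairs of genes were compared within arrays, through their log2 difference on each array. A permutation test (100000 resamples of the arrays, two-sided) asked whether that difference followed a 24-h cosine, with adjustment over the 6 pairs compared. It passes where the genes differ in range, in hour or in both, so the gaps in hours are given with their SE and were not tested by themselves. Ppp1r3b peaked 6.13 ± 0.68 h after Gys2 (SE), and their difference had a range of 4.29 ± 0.52 (adjusted permutation p = 2e-05). Ppp1r3c peaked 10.75 ± 0.94 h after Gys2, with a range of 5.96 ± 0.73 (adjusted permutation p = 2e-05). The unadjusted value behind both is the smallest that the permutations can give. In the fit to all 24 arrays the synthase and PTG transcripts were nearly opposite in time, and their Pearson's r over the arrays was -0.55. The SE of these gaps makes no allowance for the later clock hours on replicate 1. The 2 rhythmic targeting subunits also differed, with Ppp1r3c 4.62 ± 0.82 h after Ppp1r3b and a range of 4.20 ± 0.56 (adjusted permutation p = 3.6e-05). Gys2 differed from Pygl, the enzyme that acts against it, with a range of 2.49 ± 0.28 (adjusted permutation p = 2e-05). Pygl did not pass the rhythm test (range 0.47, adjusted p = 0.279 by limma). The difference therefore largely repeats the rhythm of Gys2, whose own range was 2.24. The pairs of Ppp1r3b and Ppp1r3c with Ppp1r3g largely repeat the rhythms of the former, since Ppp1r3g did not pass the rhythm test. These pairs are not described. Without ZT0 replicate 1 the adjusted permutation p of the 4 pairs described ran from 2e-05 to 3e-05.

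The 4 contrasts between time points 12 h apart show the same genes at single hours. From ZT0 to ZT12, 1 of the 7 genes passed, where 1.23% of all genes did. Gys2 was 2.14 ± 0.31 higher at ZT12 (SE), or 4.42-fold (adjusted p = 0.00167), and 2.12 higher without ZT0 replicate 1 (adjusted p = 0.00896). Ppp1r3b was 2.24 ± 0.64 higher without passing (adjusted p = 0.0863), and without ZT0 replicate 1 the difference was 1.42 (adjusted p = 0.352). It passed without ZT0 replicate 2 (adjusted p = 0.0222). Ppp1r3c stood at -1.35 ± 0.95 (adjusted p = 0.56), and at -2.40 without ZT0 replicate 1 (adjusted p = 0.307).

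From ZT3 to ZT15, 0 of the 7 passed, where 0.177% of all genes did. An unadjusted p under 0.05 in limma's test was found for 2 of the 7 and for 10.7% of all genes. Ppp1r3b had a difference of 2.93 ± 0.64, or 7.61-fold, without passing (adjusted p = 0.0645). It passed without any 1 of 4 arrays, which were ZT0 replicate 1 (adjusted p = 0.0215), ZT0 replicate 2 (0.0434), ZT9 replicate 1 (0.0499) and ZT15 replicate 2 (0.0313). The ZT0 and ZT9 arrays are not part of this contrast, and without them the difference stayed at 2.93. Over all single arrays left out, the adjusted p of Ppp1r3b ran from 0.0215 to 0.289. Gys2, near the middle of its swing at both hours, differed by 0.10 ± 0.31 (adjusted p = 0.949).

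From ZT6 to ZT18, 1 of the 7 passed, against 0.557% of all genes. Ppp1r3b was 3.37 ± 0.64 higher at ZT18, or 10.3-fold (adjusted p = 0.0169). This call was lost without ZT6 replicate 2 (adjusted p = 0.139) or 3 (0.0839), or without ZT18 replicate 1 (0.0582), 2 (0.0741) or 3 (0.0762), and with the median probe set (0.0689), the brightest probe set (0.169) or the unmoderated test (0.0595). Ppp1r3c differed by about as much, 3.39 ± 0.95 or 10.4-fold, with overlapping arrays and without passing (adjusted p = 0.13), and it passed without ZT6 replicate 1 (adjusted p = 0.018). Over all single arrays left out, its adjusted p ran from 0.018 to 0.469.

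From ZT9 to ZT21, 2 of the 7 passed, against 1.1% of all genes, and they moved in opposite directions. Gys2 stood at -2.30 ± 0.31, a 4.92-fold fall (adjusted p = 0.00115). Ppp1r3c was 4.20 ± 0.95 higher at ZT21, or 18.4-fold (adjusted p = 0.0301). The call of Ppp1r3c was lost without ZT9 replicate 1 (adjusted p = 0.101) or 2 (0.136), or without ZT21 replicate 1 (0.0987), 2 (0.0544) or 3 (0.133), with the brightest probe set (0.0783), a robust prior (0.0592) or the unmoderated test (0.0919), and without the replicate 1 arrays (0.0674). Gbe1 stood at -0.51 ± 0.19 (adjusted p = 0.299) and Pygl at 0.60 ± 0.26 (adjusted p = 0.419).

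**Figure D3:**
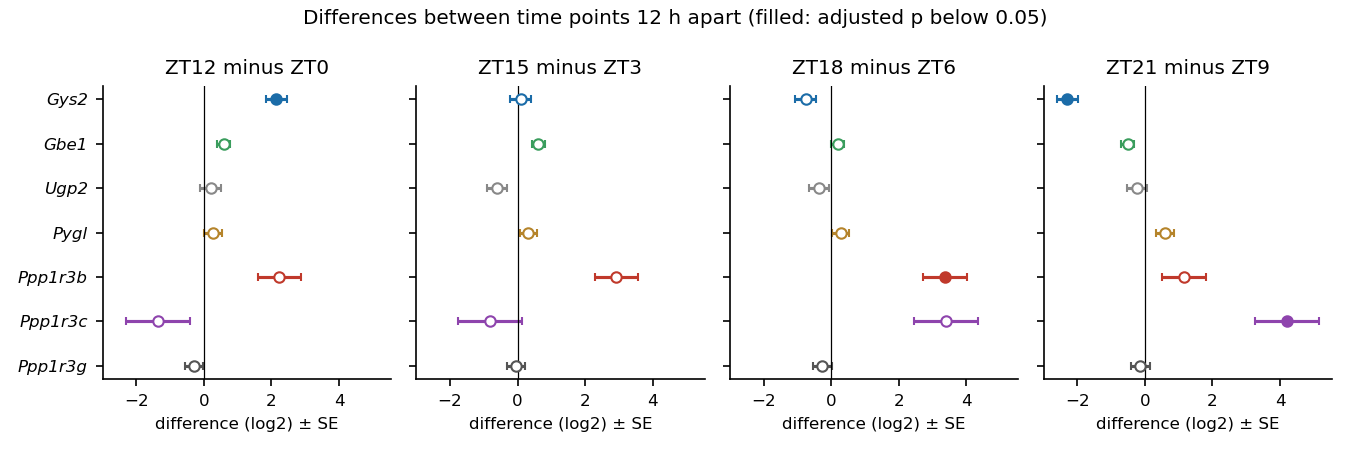
Difference in log2 expression ± SE between time points 12 h apart for the 7 genes, 1 panel for each of the 4 contrasts, with filled points for an adjusted p below 0.05. Gys2 stands at 2.14 for ZT12 minus ZT0 and at -2.30 for ZT21 minus ZT9, where Ppp1r3c stands at 4.20.

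A time effect of any shape, tested by limma's F over the 8 means, was found for 2 of the 7 genes, where 1.98% of all genes passed. These were Gys2 (adjusted p = 0.000693) and Ppp1r3b (adjusted p = 0.00684), the latter lost with its brightest probe set (adjusted p = 0.0972). Ppp1r3c (adjusted p = 0.0618) and Gbe1 (adjusted p = 0.0853) did not pass, and Ppp1r3c passed without ZT0 replicate 1 (0.0244), ZT0 replicate 2 (0.0444), ZT6 replicate 1 (0.0139), ZT15 replicate 2 (0.0451) or ZT15 replicate 3 (0.0386). Gbe1 passed without ZT18 replicate 1 (adjusted p = 0.0221). Over all single arrays left out, the adjusted p ran from 0.0139 to 0.141 for Ppp1r3c and from 0.0221 to 0.195 for Gbe1. It was 0.181 and 0.436 with the brightest probe set, and 0.00927 and 0.0342 with array weights. A 12-h component added to the 24-h terms passed for 0 of the 7 genes and for 0% of all genes by limma's test. None of the 7 had an unadjusted p under 0.05 there, against 6.09% of all genes, and the unmoderated test called 0 of the 7 too.

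The probe sets of a gene cover different stretches of its transcript, and they were tested singly over all 269479 probe sets. Of the 80 probe sets, 26 had a rhythm, against 1.7% of all, dim ones included. Most of the 80 lay above background, and the share among probe sets above background was not computed. Probe sets of 1 gene were read on the same arrays and make up its mean, so they are not separate evidence. The 26 were 5 of 5 for Ppp1r3b, with acrophases from 15.72 to 16.46 h, 3 of 3 for Ppp1r3c, from 20.38 to 20.93 h, and 18 of 19 for Gys2, from 9.15 to 10.55 h. The ranges within a gene varied, from 2.69 to 5.62 for Ppp1r3b, 3.68 to 3.90 for Ppp1r3c and 1.31 to 3.22 for Gys2. For Gbe1, 0 of 20 passed, and 17 had an unadjusted p under 0.05 in limma's test, as had 12.4% of all probe sets. Its probe sets had ranges from 0.51 to 1.32, with a smallest adjusted p of 0.0561. For Ugp2 and Pygl 0 of 14 each passed, and 3 and 1 had an unadjusted p under 0.05 in limma's test, read against the same 12.4%.

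**Figure D4:**
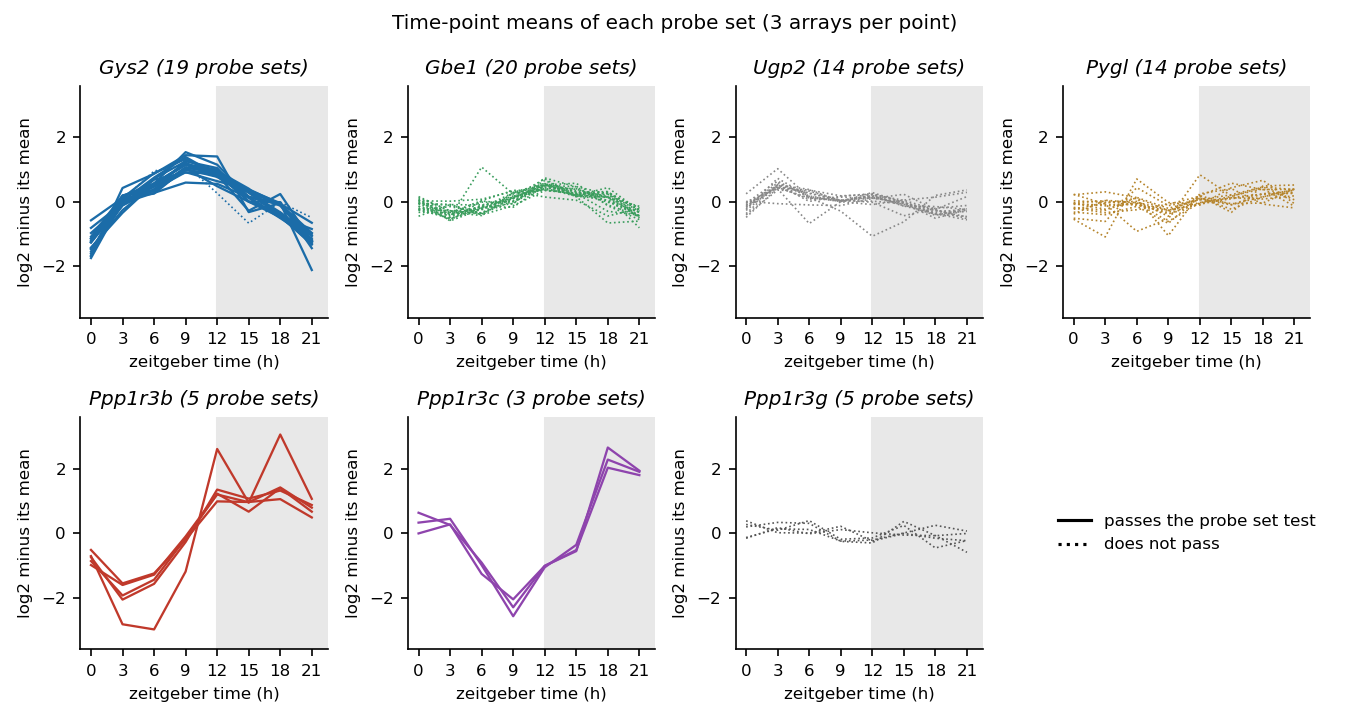
Log2 expression of each probe set (lines) of the genes against zeitgeber time, as the deviation of its time-point means from its own mean, solid where the probe set passed the rhythm test and dotted where it did not. The grey band is ZT12 to ZT24. The 5 probe sets of Ppp1r3b and the 3 of Ppp1r3c run together, and those of Gys2 share their peak hours.

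The rhythm was also fitted to the 8 arrays of each replicate number, since the clock genes were later on replicate 1. Gys2 had its acrophase at 11.69 ± 0.40 h on replicate 1, 8.68 ± 0.70 h on replicate 2 and 9.59 ± 0.55 h on replicate 3. Gbe1 followed the same order, with 14.61 ± 0.94, 10.69 ± 1.70 and 12.33 ± 0.69 h. Ppp1r3b lay at 15.84 ± 0.81, 16.59 ± 1.53 and 15.86 ± 0.64 h. Ppp1r3c lay at 20.75 ± 2.89, 21.42 ± 1.15 and 19.92 ± 0.70 h, with ranges of 2.35, 4.54 and 4.65. Gys2 and Gbe1 were latest on replicate 1, as the clock genes were. These differences were not tested.

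**Figure D5:**
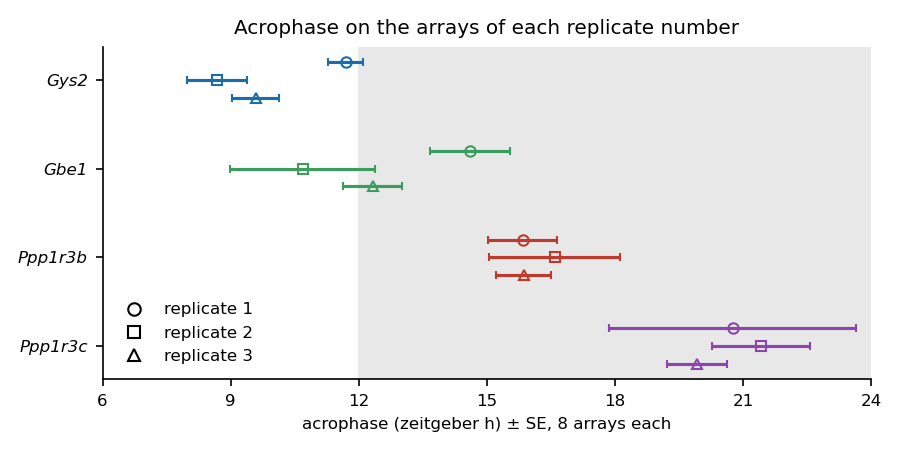
Acrophase in zeitgeber hours ± SE of the 4 rhythmic genes, fitted separately to the 8 arrays of each replicate number. Grey marks ZT12 to ZT24. Gys2 and Gbe1 are latest on replicate 1 (11.69 and 14.61 h).

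The genes most like each rhythmic gene were named by Pearson's r over the 24 arrays, among 9433 named genes above background. For Gys2 they were Smim4 (r = 0.912), Lrp4 (r = 0.912) and Klf13 (r = 0.910). For Gbe1 they were Elovl6, a fatty acid elongase (r = 0.830), Tcim (r = 0.817) and Acaca, which makes malonyl-CoA for fatty acid synthesis (r = 0.815). Acaca itself did not pass the 24-h rhythm test (adjusted p = 0.164 by limma). For Ppp1r3b they were Ints10 (r = 0.862), the clock repressor Cry1 (r = 0.858) and Ahctf1 (r = 0.849). For Ppp1r3c they were Slc30a10, a manganese exporter (r = 0.897), Mreg (r = 0.896) and Leap2, a liver peptide that blocks the ghrelin receptor (r = 0.889).

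Of 29 other measured genes of glycogen metabolism, 20 lay above background and 6 had a rhythm. The test passed for 6.88% of all genes and 13.9% of those above background. The median range of the 29 was 0.36, against 0.252 over all genes and 0.326 over genes above background. Slc37a4, which carries glucose-6-phosphate into the endoplasmic reticulum, had a range of 1.52 ± 0.27 at 10.30 h (adjusted p = 0.00251). Stbd1, which anchors glycogen to membranes, had a range of 1.20 ± 0.24 at 8.19 h (adjusted p = 0.00589), lost with its brightest probe set (0.141). Gckr had a range of 0.62 ± 0.13 at 21.35 h (adjusted p = 0.00966), lost with the median (0.104) or brightest probe set (0.189). Gsk3a, a kinase that inactivates glycogen synthase, had a range of 0.53 ± 0.13 at 7.34 h (adjusted p = 0.023), lost without ZT9 replicate 2 (0.05) or 3 (0.0518), with the median (0.229) or brightest probe set (0.324), and without the replicate 1 arrays (0.0736). Pgm2l1 (0.67 ± 0.16, adjusted p = 0.0299) and Ppp1r3e (0.62 ± 0.16, adjusted p = 0.0408) were close to the threshold, and Ppp1r3e lay below background at 5.61. The call of Pgm2l1 was lost without ZT0, ZT12 or ZT21 replicate 2 or any ZT9 array (adjusted p 0.053 to 0.064). That of Ppp1r3e was lost without any 1 of 12 arrays, ZT0 replicate 1 among them (adjusted p 0.0523 to 0.0987). With the median probe set both were lost, at 0.357 for Pgm2l1 and 0.61 for Ppp1r3e. With the brightest probe set Pgm2l1 was lost (0.42) and Ppp1r3e passed (0.00604). Ppp1r3e was also lost with the unmoderated test (0.0519). Over all alternatives, single arrays included, the call was lost 10 times for Pgm2l1 and 16 times for Ppp1r3e. The count fell to 3 without ZT9 replicate 3. The muscle forms of the enzymes, Gys1 (mean 5.90) and Pygm (5.20), lay below background, as did the targeting subunits Ppp1r3a (4.76), Ppp1r3d (4.36) and Ppp1r3f (4.62), and none of these passed the test. Pygb, the brain form of the phosphorylase, lay above background at 6.62 and did not pass either (adjusted p = 0.427 by limma).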

How the data were processed

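Liver RNA of 24 samples was hybridised to whole-transcript Affymetrix arrays, from 300 ng of RNA each, per the labels' protocols. The deposited values are log2 expression per probe set, normalized by the authors with a method not given in the sources used here. The submitters' processing notes list limma, Affymetrix Power Tools 2.10.0 and mm10, with no roles. The highest value, 19.93, is reached by 1283 probe sets, among them 1 of Gys2 and 1 of Pygl, and changes above it cannot be seen. Of 269479 probe sets, the 233753 with 1 symbol were averaged per gene, after 2189 old symbols were updated from RefSeq (GRCm38.p6), which also gave positions. All 23152 genes were fitted, with no filter on dim genes, on all 24 arrays with limma 3.58.1 in R 4.3.3, and adjusted by Benjamini-Hochberg over all genes. The scripts were tested on simulated data. The number of arrays limits the precision. The genes named as most alike were the 3 with the highest r for each rhythmic gene, and listed genes were named where they passed or are a counterpart of one of the 7. The 7 genes, the lists and the tests were chosen with earlier results of these data known. Alternatives were 13 other settings and leaving out each of the 24 arrays. Some listed genes are not reported here.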

Additional observations from a re-analysis of the deposited data

How the results depend on the processing

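The 24-h rhythm of Gys2, Ppp1r3b and Ppp1r3c passed under all 13 settings and without any 1 array, and no called difference changed sign. Among those that did not pass, Gys2 for ZT15 minus ZT3 went from 0.10 to -0.35 and Ugp2 for ZT21 minus ZT9 from -0.23 to 0.13 on replicates 2 and 3, and Ppp1r3c for ZT15 minus ZT3 ran from -1.68 to 0.07 without single arrays. For the time effect the count of 2 became 1 with the brightest probe set 4 without dim genes or with array weights, 3 with quantile normalization, on replicates 2 and 3 or without the ZT0 arrays, and 2 to 3 without single arrays. For ZT12 minus ZT0 it became 2 without dim genes, and 1 to 2 without single arrays. For ZT15 minus ZT3 the count of 0 became 1 with the median probe set, without dim genes, with array weights and without the ZT0 arrays, and 0 to 1 without single arrays. For ZT18 minus ZT6 it became 0 with the median or brightest probe set or the unmoderated test, 2 with array weights, 3 on replicates 2 and 3, and 0 to 2 without single arrays. For ZT21 minus ZT9 it became 1 with the brightest probe set, the robust prior, the unmoderated test or replicates 2 and 3, and 1 to 2 without single arrays. The 6 other glycogen genes became 2 with the median or brightest probe set, 3 on replicates 2 and 3, 4 without the ZT0 arrays, 5 without dim genes or with the unmoderated test, 7 with quantile normalization, array weights or the replicate block, and 3 to 7 without single arrays. These last alternatives were chosen after seeing the data. The cause was not tested. Deviations of same-numbered samples did not correlate (median -0.032 over 84 pairs), so the numbers were not used as pairs. Neither this check nor a block registers the later clock hours on replicate 1. With the replicate block 4 of the 7 were rhythmic, with Gbe1 at an adjusted p of 0.0112 by limma. Over all genes, 1592 rhythmic genes became 907 with the median probe set, 760 with the brightest and 765 on replicates 2 and 3, and the 4591 rhythmic probe sets became 2007 on replicates 2 and 3. The 458 genes with a time effect became 222, 122, 204 (unmoderated), 704 (without dim genes) and 694 (array weights). Over the settings that could be fitted, the calls over all genes ran from 52 to 616 for ZT12 minus ZT0 (285), 4 to 128 for ZT15 minus ZT3 (41), 29 to 396 for ZT18 minus ZT6 (129) and 97 to 382 for ZT21 minus ZT9 (254). Without single arrays they reached 39 and 776 for ZT12 minus ZT0, the latter without ZT0 replicate 2, 0 for ZT15 minus ZT3 and 11 for ZT18 minus ZT6. ZT12 minus ZT0 cannot be fitted without the ZT0 arrays. Ppp1r3g gave no value without dim genes.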
